A study of Mus musculus with 16 samples.

Results

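RNA recovered with an antibody against MYF5 was compared with RNA recovered with control IgG from the cytoplasm of dividing mouse myoblasts. Both groups were C2C12 cells, an established mouse myoblast line, kept in growth medium (GM, DMEM with 10% fetal bovine serum). Cytoplasmic extract was incubated with anti-MYF5 (4 arrays) or IgG (4 arrays), bound RNA was amplified from oligo-dT, and the labelled product was hybridised to Illumina mouse bead arrays. The comparison used 8 of the 16 arrays of the series; the other arrays held the same antibodies on extract from cells moved to 2% horse serum in DMEM (differentiation medium, DM). A probe entered the comparison when its detection p-value was under 0.05 on at least 4 of the 8 GM arrays, which 12430 of 25697 probes did. These probes stood for 8484 of the 16590 gene symbols on the array. No array of RNA before precipitation was analysed here, and each difference is therefore a difference between what the precipitates held, not a transcript level in the cell.

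MYF5 belongs to the MYOD family of helix-loop-helix factors, which bind the E-box sequence in DNA, and acts early in the commitment of cells to skeletal muscle. RNA immunoprecipitation recovers the transcripts that travel with a protein in an extract, together with RNA that sticks to beads and antibody, and the IgG arm measures the latter. The title of the series names MYF5 and cyclin D1, the product of Ccnd1, which drives myoblasts through G1 and falls when they leave the cell cycle.

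Because MYF5 is known as an E-box binder, the 250 bases before the start of the gene with the largest positive and of the gene with the largest negative difference are shown, 5′ to 3′ on the strand of the gene, with each match to CANNTG in capitals. Sequences are from RefSeq on GRCm38.p6.
Rfc1, chr5:65335640-65335889, minus strand: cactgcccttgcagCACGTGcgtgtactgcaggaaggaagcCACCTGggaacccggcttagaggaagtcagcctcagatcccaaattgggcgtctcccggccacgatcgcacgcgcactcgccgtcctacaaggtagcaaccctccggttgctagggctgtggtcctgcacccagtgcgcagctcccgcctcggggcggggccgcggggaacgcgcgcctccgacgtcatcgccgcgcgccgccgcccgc
Smarcal1, chr1:72583001-72583250, plus strand: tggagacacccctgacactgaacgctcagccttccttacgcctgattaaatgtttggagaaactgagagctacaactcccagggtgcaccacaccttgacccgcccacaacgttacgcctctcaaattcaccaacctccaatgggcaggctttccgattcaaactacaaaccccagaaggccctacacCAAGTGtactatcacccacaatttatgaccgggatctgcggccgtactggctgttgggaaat
Rfc1 had 2 matches and Smarcal1 had 1. CANNTG reads the same way on both strands by its fixed letters, so a search of 1 strand finds every match. A window was listed for 6962 of 8484 tested genes, and 56.3% of these windows held the motif. The share was 53.6% among 1980 windows of genes recovered more with anti-MYF5 and 56.8% among 1745 windows of genes recovered less. Over all 27025 RefSeq windows it was 66.0%. The median GC content of the windows was 62.8% for the genes recovered more and 58.0% for those recovered less. These shares describe DNA letters near gene starts and were not tested.

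A like share of probes was detected on the GM arrays, while mean signal varied. Probes detected came to 47.8% ± 1.21 (SD, n = 4) with IgG and 48.2% ± 1.23 (SD, n = 4) with anti-MYF5. The mean raw signal was 324 to 513 on the IgG arrays and 412 to 581 on the anti-MYF5 arrays, which overlapped, and IgG array 4 was the dimmest. Correlation of log2 values across probes was 0.972 to 0.994 between IgG arrays, 0.983 to 0.993 between anti-MYF5 arrays and 0.934 to 0.962 between the groups. The gap between the brightest and the dimmest tested probe of Actb was 6.41 ± 1.54 (log2, SD, n = 4) with IgG and 3.93 ± 0.52 (SD, n = 4) with anti-MYF5. The mean gap was smaller with anti-MYF5, but IgG array 4, at 4.20, lay within the anti-MYF5 range of 3.34 to 4.53. The part of this gap in the differences given here was not tested. Of 8 myoblast markers, 7 had a probe and 6 were detected on every GM array, among them Myod1, Des, Vim and Chrna1. Markers of other cell types were mostly but not all below detection. Of 5 fat markers with a probe, Pparg and Lpl were detected on every GM array and the other 3 on none. Of 4 neuron markers, Map2 was detected on every array (mean raw signal 287 and 368 with IgG and anti-MYF5) and 3 on none. Of 4 endothelium markers, Kdr was detected on 3 of 4 IgG and all anti-MYF5 arrays, at 79.6 and 83.5, and 3 on none. Of 5 bone and cartilage markers, Sox9 was detected on every array (429 and 528), Sp7, Bglap and Col2a1 on some, and Acan on none. Of 4 epithelium and liver markers, Cdh1 and Krt8 were detected on some arrays and 2 on none. Of 3 blood markers, Hba-a1 was detected on every array (531 and 178) and 2 on none. The part of other cells in the differences was not tested. Summed raw signal of the 5 fat markers with a probe was 834 to 1201 with IgG and 1345 to 2098 with anti-MYF5. The sums differed mostly through Pparg, with means of 485 with IgG and 1081 with anti-MYF5. Lpl had means of 344 and 380. The labels do not say whether the 4 arrays of a group came from separate cultures, so p-values measure the spread between these arrays, which may be technical.

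Anti-MYF5 and IgG precipitates differed widely. At an adjusted p under 0.05 (limma, Benjamini-Hochberg over 12430 probes), 3634 probes were higher with anti-MYF5 (29.2% of those tested) and 3052 were lower (24.6%). By gene, each represented by its brightest tested probe, 2462 of 8484 were higher (29%) and 2107 were lower (24.8%). Reductions were the larger: 581 genes were at least 2-fold lower and 339 at least 2-fold higher. The median difference over all genes was 0.05 on the log2 scale. The split depended on scaling, since the median over all genes was 0.25 with median scaling and 0.39 with no scaling between arrays. Of the called probes 54.4% were higher under quantile normalization, 74.1% under median scaling and 82.8% without scaling. Class values are for that reason also given relative to the all-gene median of each scaling. Bright probes were called more often in both directions: from the dimmest to the brightest of 5 equal groups of genes, the share higher went from 15.1% to 39.4% and the share lower from 16.5% to 30.9%.

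**Figure D1:**
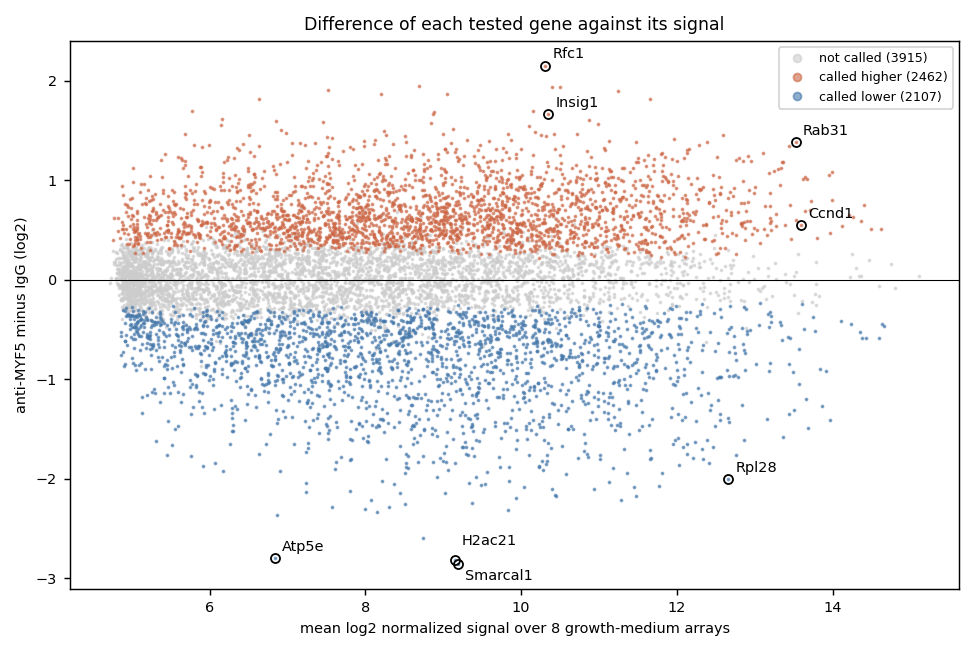
Difference between anti-MYF5 and IgG (log2, vertical axis) against the mean log2 normalized signal over the 8 growth-medium arrays for each of the 8484 tested genes, coloured by call. Calls lie at every signal level, and the points reach further below 0 (Smarcal1, -2.85) than above it (Rfc1, 2.15).

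Ccnd1, the cyclin D1 gene, was higher with anti-MYF5 on all of its 3 tested probes under quantile normalization, but the call on the brighter probes depended on scaling. The brightest probe read 13.39, 13.22, 13.48 and 13.16 (log2 normalized signal) on IgG arrays 1 to 4 and 14.07, 13.87, 14.01 and 13.50 on anti-MYF5 arrays 1 to 4. The groups did not overlap, and anti-MYF5 array 4 was the lowest of its group. The difference was 0.55 ± 0.12 (SE; adjusted p = 8.1e-04, exact permutation p = 0.0286, the smallest that 4 against 4 arrays can give). It was 0.43 with median scaling (adjusted p = 0.051) and 0.19 with cyclic loess (adjusted p = 0.18). In the authors' deposited array-wise z-scores it was -0.0354 standard deviations (adjusted p = 0.75). The next probe differed by 0.43 ± 0.11 and lost its call under the same alternatives. The dimmest of the probes read 9.89, 9.95, 10.45 and 10.41 with IgG and 11.10, 10.80, 11.11 and 10.73 with anti-MYF5, a difference of 0.76 ± 0.25 (adjusted p = 0.014), and kept its call under every setting run. The transcript of Myf5 itself was at background: its probe gave raw signals of 68.2 to 83.3 with IgG and 72.6 to 81.8 with anti-MYF5, passed the detection limit on 1 of 8 arrays and was not tested.

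The largest positive differences belonged to genes of several functions. Rfc1, which helps load the sliding clamp onto replicating DNA, read 9.29, 9.11, 9.24 and 9.29 with IgG and 11.50, 11.37, 11.37 and 11.30 with anti-MYF5. Both groups were tight and lay far apart, with a difference of 2.15 ± 0.13 (SE; adjusted p = 5.9e-11). Gatad1, a GATA zinc finger protein of chromatin, read 9.15, 9.38, 9.37 and 9.81 with IgG and 11.22, 11.36, 11.44 and 11.45 with anti-MYF5, a difference of 1.94 ± 0.14. Ykt6, a SNARE of vesicle fusion, read 10.28, 10.96, 10.69 and 11.08 against 12.59, 12.51, 12.56 and 12.60, and every anti-MYF5 array was above every IgG array by more than 1 log2 unit (1.81 ± 0.15). The other 9 of the 12 largest were Mreg, an organelle transport factor of melanocytes (1.95), Tmem38b, an intracellular cation channel (1.94), Gna12, a G protein alpha subunit (1.91), Arl2bp, a binder of the GTPase Arl2 (1.90), Bend6 (1.87), Pxdc1 (1.86), Stx2, a plasma membrane syntaxin (1.81), Tmem80 (1.69) and Ccdc126 (1.69). The Tmem80 probe was detected on 2 of 4 IgG arrays and all anti-MYF5 arrays. Adjusted p-values of the 12 ran from 5.9e-11 to 1.1e-07. These genes were chosen for size and for groups that do not overlap, so the absence of overlap is not a result.

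The largest negative differences included genome maintenance, histone and respiratory chain genes. Smarcal1, a helicase that rewinds DNA at stalled replication forks, read 10.32, 10.65, 10.40 and 11.08 with IgG and 7.57, 7.97, 7.54 and 7.96 with anti-MYF5. The lowest IgG array was more than 2 log2 units above the highest anti-MYF5 array (-2.85 ± 0.15, adjusted p = 3.9e-11). H2ac21, a histone H2A gene, read 10.62, 10.74, 10.38 and 10.47 against 7.40, 7.69, 7.94 and 7.93 (-2.81 ± 0.15). Atp5e, the epsilon subunit of ATP synthase, read 8.42, 8.25, 8.08 and 8.21 against 5.13, 5.55, 5.37 and 5.71 (-2.80 ± 0.18), and the groups lay more than 2 log2 units apart. The rest of the 12 were the calcium-binding S100a13 (-2.60), the tautomerase Ddt (-2.36), 2310039H08Rik (-2.33), H2ac11 (-2.31), the alpha globin gene Hba-a1 (-2.30), the cornified envelope gene Sprr2a1 (-2.29), Atrip, the partner of the ATR kinase (-2.28), Atp5o, a stalk subunit of ATP synthase (-2.25), and Chmp2a, of the ESCRT-III membrane scission complex (-2.24). Hba-a1 read 8.92, 8.89, 8.69 and 10.06 with IgG and 6.22, 6.83, 6.74 and 7.58 with anti-MYF5, with IgG array 4 more than 1 log2 unit above the other IgG arrays. Of the blood markers with a probe, Hba-a1 was the member detected on every GM array, Hbb-bt and Ptprc were detected on none, and the summed raw signal of these 3 markers was 607 to 801 with IgG and 274 to 370 with anti-MYF5. The source of the globin signal was not tested.

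**Figure D2:**
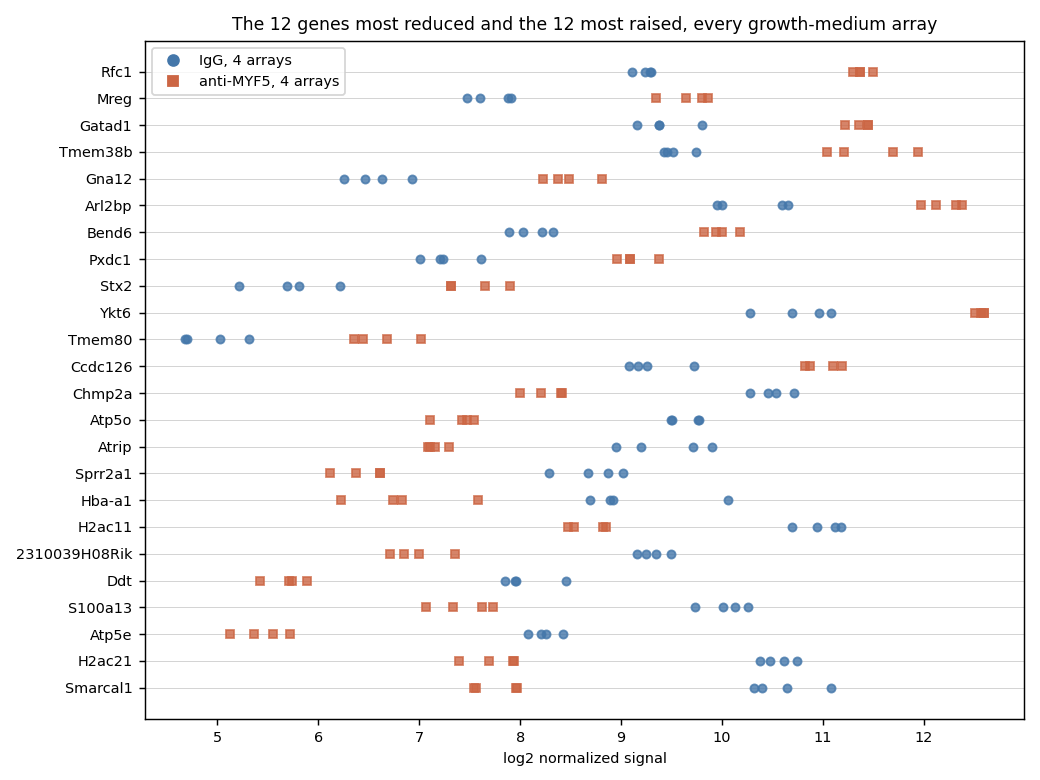
Log2 normalized signal (horizontal axis) of the 12 genes with the largest negative and the 12 with the largest positive difference, with 1 point for each growth-medium array. IgG and anti-MYF5 points are separate for every gene shown, which the selection required, and Hba-a1 has the widest IgG spread among the genes that were lower.

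Gene classes were then read against the background of all genes. Lists covered 2014 of the 8484 tested genes in 57 classes with at least 5 tested members, of which 26 had a median difference above 0 and 31 below 0. The classes lowest with anti-MYF5 were ATP synthase (-1.41), complex I (-1.15), complexes II to IV (-1.08) and the 19S proteasome (-0.89). The classes highest were the G1 regulators (0.45), the immediate early genes (0.44), the palmitoyltransferases (0.30) and the dual-specificity phosphatases (0.28). Classes lay further below the all-gene median than above it. Of 33 classes with at least 8 lower genes, the number of lower genes fell by over 1.5 times in 19 with median scaling and in 25 without scaling, and in none with cyclic loess. Counts of members were read against 29% higher and 24.8% lower over all tested genes.

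**Figure D3:**
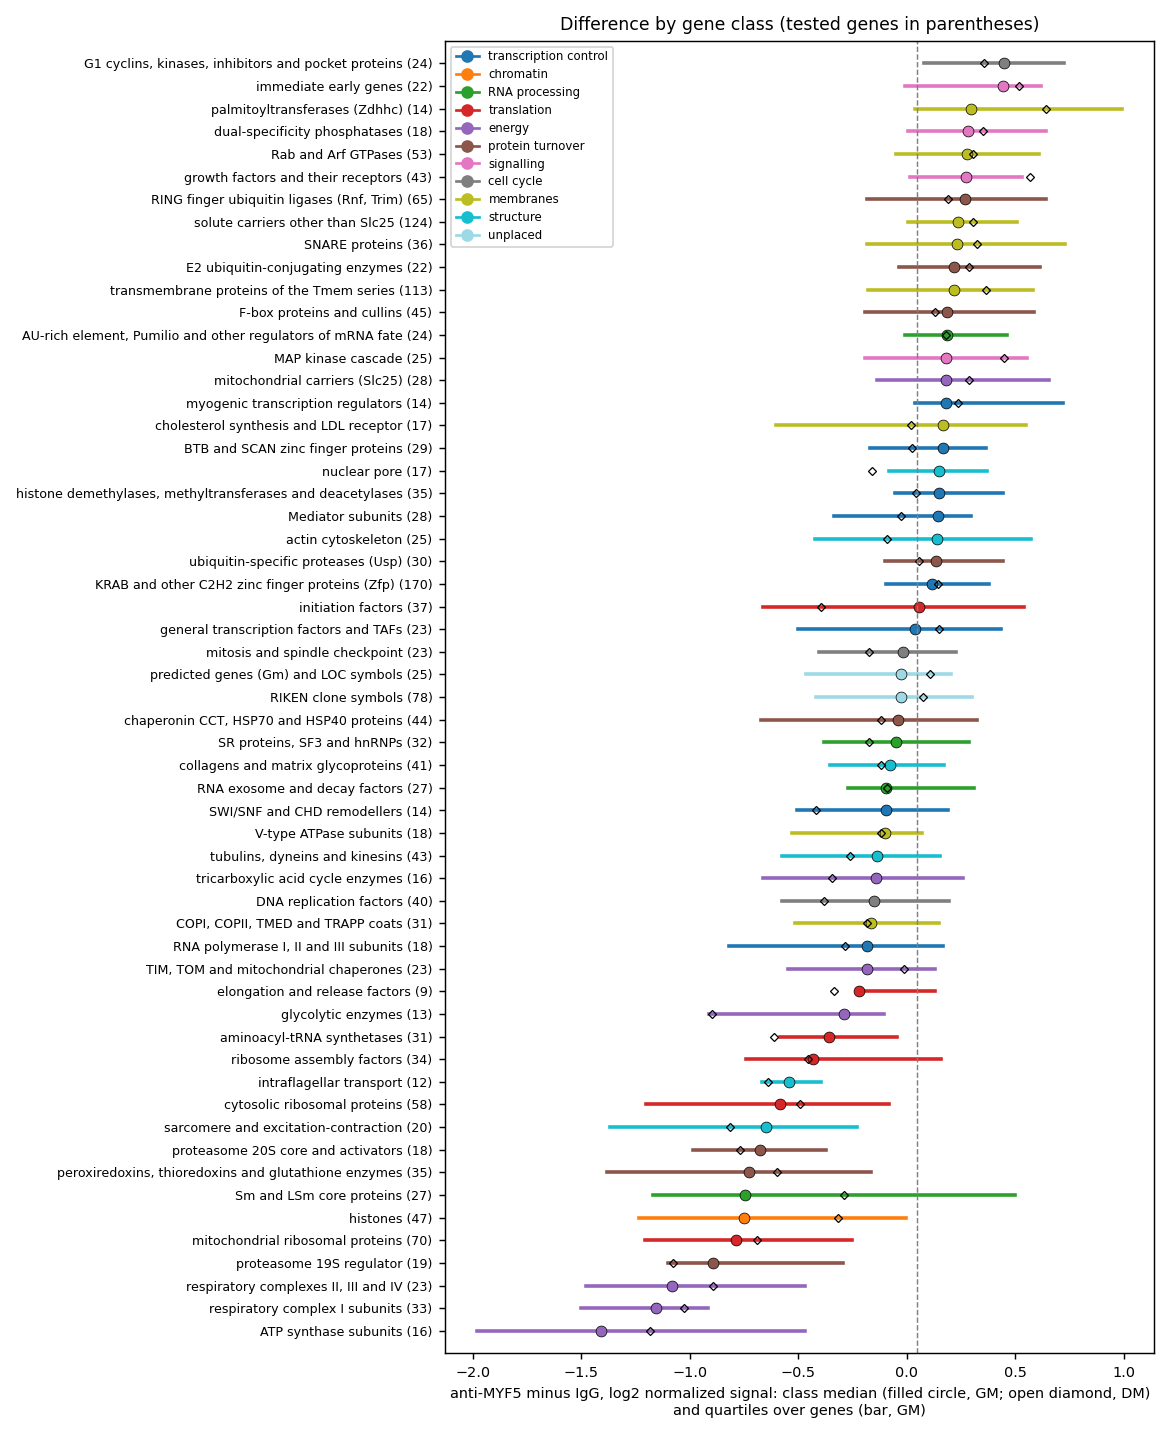
Median difference between anti-MYF5 and IgG (log2) of each gene class in growth medium (filled circles) with the quartiles over its genes (bars), coloured by role, and the median in differentiation medium (open diamonds). The dashed line is the median of all tested genes at 0.05. ATP synthase, at -1.41, is lowest and the G1 regulators, at 0.45, are highest.

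Nuclear-encoded subunits of the respiratory chain were recovered far less with anti-MYF5. Of 33 tested subunits of complex I, which takes electrons from NADH, 30 were lower and none higher (median -1.15, range -2.16 to 0.26). The 3 not called were Ndufb3 (-0.22), Ndufc2 (0.02) and Ndufa6 (0.26). Ndufa6 was called higher with median scaling (0.37) and without scaling (0.51). ATP synthase had 13 of 16 lower and none higher, from Atp5e (-2.80), Atp5o (-2.25) and Atp5g1 (-2.08) at the strong end to Atp5j (-0.48) and Atp5g3 (-0.44); the Atp5j call was lost with median scaling or without scaling. Its catalytic subunit beta, Atp5b, was at 0.26 and gamma, Atp5c1, at -0.03, neither called, while the alpha subunit Atp5a1 was at -0.65, a call lost under the same scalings. All 8 tested genes of complex III and cytochrome c were lower, but 5 with median scaling and 4 without scaling. Of 12 cytochrome oxidase genes 9 were lower, led by Cox7a2 (-2.22) and Cox6b1 (-2.17), or 8 under either of these scalings. Cox7c ran the other way at 0.87 ± 0.11 (adjusted p = 8.2e-07), and 1 of 3 succinate dehydrogenase genes was called lower (Sdhc, -0.71; not called without scaling). Relative to the all-gene median, complex I lay at -1.28 to -1.20, complexes II to IV at -1.16 to -1.11 and ATP synthase at -1.48 to -1.43 under the 4 scalings. Without any scaling the lower calls were 25, 12 and 10.

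The reduction was seen on each array. Cox6b1, a peripheral subunit of cytochrome oxidase, read 12.59, 12.56, 12.41 and 12.68 with IgG and 10.08, 10.31, 10.54 and 10.62 with anti-MYF5 (-2.17 ± 0.12). Ndufv3, of the NADH-binding module of complex I, read 11.38, 11.60, 11.22 and 11.87 against 9.03, 9.35, 9.25 and 9.79 (-2.16 ± 0.15). The anti-MYF5 arrays were all lower by more than 1 log2 unit for both genes. Other mitochondrial lists had medians nearer to that of all genes. Of 28 Slc25 carriers of the inner membrane, 12 were higher and 4 lower, with Slc25a30 (1.57) and Slc25a36 (1.33) above and the adenine nucleotide carrier Slc25a5 (-0.74) below. Tricarboxylic acid cycle enzymes had 8 of 16 lower and 3 higher, among them Idh3g (-1.33) and Idh2 (-0.87) and Dlat (0.53), and their median of -0.14 turned positive without scaling (0.25). Import and chaperone genes had 9 of 23 lower and 5 higher, with Tomm6 (-1.60) and Grpel1 (-1.17) and Tomm7 (0.97), and a median of -0.18 that also turned positive without scaling (0.13). Glycolytic enzymes had 6 of 13 lower and none higher, led by Aldoa (-1.87) and Eno3 (-1.78).

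Genes of both ribosomes were lower with anti-MYF5. For the cytosolic ribosome 38 of 58 protein genes fell below IgG and 3 rose above it (median -0.58), with 17 of 23 lower for the small subunit and 21 of 35 for the large. Rpl28 read 13.80, 13.71, 13.61 and 13.52 with IgG and 11.55, 11.80, 11.73 and 11.57 with anti-MYF5, a separation of groups that each spread over a narrow range (-2.00 ± 0.11, adjusted p = 3.9e-11). It was followed by Rpl29 (-1.89), Rps15 (-1.79) and Fau (-1.64). The 3 higher genes were Rpl22 (1.01), Rps2 (0.52) and Rps15a (0.46), with the Rps2 call lost under each other scaling. Rpl22 read 9.87, 10.31, 10.01 and 10.96 with IgG and 11.07, 11.16, 11.02 and 11.94 with anti-MYF5, with anti-MYF5 array 4 apart above the rest. The class median was -0.98 with cyclic loess, more than 1.5 times as far from 0. Ribosomal protein genes have many processed pseudogenes, and a probe can also read a near-identical copy, so single members are uncertain. Mitochondrial ribosomal proteins, which are encoded in the nucleus, had 52 of 70 lower and 6 higher (median -0.79), or 29 lower and 10 higher without scaling, with Mrpl52 (-2.10) and Mrpl54 (-2.08) lowest and Mrpl57 (1.61) highest. Relative to all genes the cytosolic list lay at -1.06 to -0.63 and the mitochondrial list at -0.85 to -0.80 under the 4 scalings.

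Factors that act on the ribosome were divided. Among 37 initiation factor genes, 12 were higher and 16 lower, and the sign of the median of 0.06 changed with cyclic loess (-0.04). Relatives of the cap-binding protein eIF4E moved apart. Eif4e3 read 9.24, 9.57, 9.65 and 9.25 with IgG and 10.97, 11.03, 10.99 and 10.68 with anti-MYF5 (1.49 ± 0.12), while Eif4e2 read 10.77, 10.52, 10.66 and 10.48 and 8.81, 8.69, 8.85 and 8.96 (-1.78 ± 0.11). The groups were separate for both genes, in opposite order. The eIF4E-binding repressors were also split, with Eif4ebp1 (-0.76) lower and Eif4ebp2 (0.81) higher. All 4 tested subunits of eIF2B, the exchange factor of eIF2, were lower (Eif2b2 (-0.83), Eif2b4 (-0.66), Eif2b1 (-0.47) and Eif2b5 (-0.27)), but 1 was called with median scaling and none without scaling. Subunits of eIF3, the scaffold of the initiation complex, had 5 of 10 lower, led by Eif3k (-1.88), Eif3a (-1.36) and Eif3h (-1.05), and 2 higher (Eif3i (0.63) and Eif3j1 (0.63)), with the Eif3i call lost with median scaling or cyclic loess. Aminoacyl-tRNA synthetases and their partners, which charge tRNAs, had 17 of 31 lower (Aimp2 (-1.26) and Rars (-1.14) among them) and 1 higher, Iars2 (0.44 ± 0.15), whose call was lost with the 8 GM arrays fitted alone and without IgG array 1 or 2 or anti-MYF5 array 1 or 3. Their median was -0.36, or -0.42 to -0.40 relative to all genes, and 4 lower calls were left without scaling. Ribosome assembly factors had 16 of 34 lower, with Nol12 (-1.83) and Nop10 (-1.76), and 7 higher, with Utp6 (0.74). These counts became 10 lower and 7 higher with median scaling, and 7 lower and 8 higher without scaling, where the median was -0.03. Elongation and release factors had 2 of 9 lower (Eef1d (-1.32) and Eef1b2 (-0.95)) and 1 higher, the release factor Etf1 (0.65), and a median of -0.22 that was positive with median scaling (0.04).

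Proteasomes degrade proteins marked with ubiquitin. Proteasome genes were lower: 14 of 18 for the 20S core and its activators with none higher (median -0.68), and 15 of 19 for the 19S regulator (median -0.89). Without scaling 9 of 18 and 9 of 19 were lower. Psmc1, an ATPase of the 19S base, read 10.91, 10.77, 10.79 and 10.80 with IgG and 9.40, 9.28, 9.30 and 9.54 with anti-MYF5 (-1.44 ± 0.11). Psme1, of the PA28 activator, read 9.89, 9.49, 9.51 and 9.60 against 7.71, 7.85, 7.61 and 8.23 (-1.77 ± 0.16). No array of either group crossed into the other for these genes. The immunoproteasome subunit Psmb10 was at -1.46, the ubiquitin receptor Psmd4 at -1.35, and the assembly chaperone Psmd9 was the 1 member higher (0.55 ± 0.18, adjusted p = 0.011), a call lost without IgG array 4 or without anti-MYF5 array 1. Relative to all genes the lists lay at -0.86 to -0.72 and -1.06 to -0.94 under the 4 scalings.

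Enzymes that attach or remove ubiquitin had medians above 0, with shares of higher genes from 33.3% to 47.7% beside the 29% of all genes. Of 65 RING finger ligases 31 were higher (47.7%) and 10 lower (15.4%), with Rnf44 (1.30) and Rnf11 (1.23) and the muscle gene Trim54 (-1.29) at the ends. E2 conjugating enzymes had 9 of 22 higher (40.9%), including Ube2g2 (1.37) and Ube2f (1.19), and 2 lower. F-box proteins and cullins had 16 of 45 higher (35.6%) and 8 lower (17.8%), both nearer to the background, with Fbxo21 (1.24) and Fbxl14 (1.16) and Fbxl13 (-1.13). Ubiquitin-specific proteases, which remove ubiquitin, had 10 of 30 higher, 33.3% and near the background (Usp12 (1.59) and Usp21 (1.16) led), and 3 lower. Medians were 0.27, 0.22, 0.19 and 0.13 in this order, small beside the proteasome values, and kept their sign relative to all genes under the 4 scalings.

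Antioxidant genes were lower. Of 35 genes for peroxiredoxins, thioredoxins, superoxide dismutases and glutathione enzymes, 24 were lower and 1 was higher (median -0.73, -0.80 to -0.73 relative to all genes). Glutathione S-transferases, which conjugate glutathione to toxic compounds, made up 13 of these calls among 15 tested members, from Gsta2 (-1.84) and Gsta4 (-1.75) to Gstz1 (-0.32), whose call was lost with median scaling or without scaling. Gsta4 read 9.49, 9.29, 9.34 and 9.46 with IgG and 7.51, 7.59, 7.83 and 7.65 with anti-MYF5, with no overlap. The cytosolic superoxide dismutase Sod1 (-1.55) and thioredoxin Txn1 (-1.50) were lower, whereas the mitochondrial Sod2 was at 0.23 ± 0.09 (adjusted p = 0.047), with overlapping groups and a call lost under most settings. Transferase genes of 1 subfamily are alike in sequence, and a probe may read several of them.

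Histone genes were lower as a list, and the core histones differed among themselves. Of 47 tested histone genes 29 were lower and 3 higher (median -0.75). By family, a division made after the values were seen, 12 of 14 H2A genes, 8 of 9 H2B genes and 8 of 10 H3 genes were lower and none was higher, while 2 of 11 H4 genes were higher and none was lower. Family medians were -1.59, -0.76, -0.82 and 0.45, with no sign change under the 4 scalings. H2ac11 read 11.12, 11.18, 10.94 and 10.69 with IgG and 8.47, 8.82, 8.85 and 8.53 with anti-MYF5 (-2.31 ± 0.16), and the groups were far apart. H4c4 read 7.34, 6.37, 5.98 and 6.49 against 7.90, 8.22, 8.38 and 7.09 (1.36 ± 0.24, adjusted p = 6.5e-05), with overlap between the groups. Lower calls without scaling came to 11 for H2A, 2 for H2B and 3 for H3, and higher H4 calls to 8, as with median scaling. Clustered histone genes share most of their coding sequence, so a probe may read several genes, and most of their transcripts carry no poly(A) tail while labelling started from oligo-dT.

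Transcription and chromatin factors were mixed. Zinc finger genes of the Zfp list, most of them DNA-binding repressors, had 46 of 170 higher (27.1%, near the background) and 15 lower (8.82%). The ends of the list were Zfp362 (1.35) and Zfp36 (1.26) and Zfp825 (-1.05). Zfp36 is the mRNA decay factor tristetraprolin, not a DNA-binding repressor, and is also counted among the regulators of mRNA fate. BTB and SCAN zinc finger genes had 8 of 29 higher (27.6%, near the background) and 2 lower (6.90%). Histone demethylases, methyltransferases and deacetylases had 12 of 35 higher (34.3%), including the H3K9 methyltransferase Ehmt1 (0.89), and 4 lower (11.4%). Mediator had 8 higher and 8 lower of 28 (28.6% each), and the general factors 7 and 7 of 23 (30.4% each). The shares over all genes were 29% higher and 24.8% lower. These even splits depended on scaling. Mediator had 10 higher and 4 lower with median scaling, and 14 higher and none lower without scaling. The general factors had 8 higher and 4 lower, and 11 higher and 4 lower, in the same order. Among the general factors Gtf2b (1.33) stood against Gtf2f1 (-1.72) and Taf10 (-1.32). The Gtf2b probe was detected on 3 of 4 IgG arrays. RNA polymerase subunits had 9 of 18 lower, led by Polr2i (-1.43) and Polr2k (-1.08), and 3 higher, with a median of -0.18 that became 0.07 with median scaling. SWI/SNF and CHD remodellers had 4 of 14 lower, with Smarcb1 (-1.56) and Smarcd3 (-0.93), and 3 higher, and a median that changed sign likewise (-0.10 against 0.16).

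Regulators of the myogenic program were higher or not called. Of 14 tested genes 6 were higher and none lower (median 0.18). Tcf12, the E-protein HEB that pairs with myogenic factors, read 8.19, 8.31, 8.43 and 8.51 with IgG and 9.66, 9.66, 9.59 and 9.79 with anti-MYF5 (1.32 ± 0.11, adjusted p = 5.7e-09), with tight and separate groups. The others called were Mef2a (1.08), Id2 (0.79), Msc (0.78), Eya1 (0.55) and Myod1 (0.44): a MADS-box partner of the MYOD family, an inhibitor of helix-loop-helix factors, the repressor musculin, a cofactor of homeobox factors and the myogenic determinant itself. Myog, the driver of differentiation, was at 0.19 and not called; its probe was detected on 2 of 4 arrays of each group. With median scaling 6 and without scaling 9 of the list were higher.

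Core proteins of the spliceosome and their relatives divided by family. Of 27 genes 16 were lower and 8 higher (median -0.74). Genes of the small nuclear ribonucleoproteins had 12 of 15 lower and 1 higher, and Lsm genes 7 of 12 higher and 4 lower, a division made after the values were seen; the Lsm counts were the same under each of the 4 scalings. Snrpd2, an Sm ring protein, read 12.28, 12.40, 12.31 and 12.33 with IgG and 10.05, 10.39, 10.64 and 10.48 with anti-MYF5 (-1.94 ± 0.15). Lsm6, of the ring on U6 snRNA and on decaying mRNA, read 10.83, 11.23, 11.31 and 10.63 against 12.30, 12.46, 12.36 and 11.89 (1.25 ± 0.16). Neither pair of groups overlapped. Higher Lsm genes also included Lsm11 (0.90), Lsm14b (0.90) and Lsm14a (0.82) and lower ones Lsm2 (-1.23), Lsm7 (-1.11), Lsm10 (-1.11) and Lsm4 (-0.97). Regulators of mRNA fate had 8 of 24 higher (33.3%, near the 29% of all genes) and 2 lower (8.33%). The higher ones included Zfp36 (1.26), Zfp36l1 (0.92), Khsrp (0.90) and Pum2 (0.66), factors that bind AU-rich or Pumilio elements. The lower ones were Ybx3 (-1.24) and Tial1 (-0.68), and the Tial1 call was lost with median scaling or without scaling. Exosome and decay factors had 6 of 27 higher (22.2%) and 4 lower (14.8%), with the deadenylase Cnot7 (1.11) against Exosc5 (-1.17). Their median of -0.10 turned positive with median scaling (0.13). SR proteins, SF3 and hnRNPs had 8 of 32 lower and 6 higher, and their median of -0.05 also turned positive (0.23).

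Genes that control entry into S phase were higher. Of 24 tested G1 regulators 13 were higher (54.2%) and 2 lower (median 0.45, 0.32 to 0.40 relative to all genes under the 4 scalings). E2f6, a repressor of the E2F family, read 10.92, 11.20, 10.96 and 11.06 with IgG and 12.13, 12.24, 12.17 and 12.17 with anti-MYF5 (1.14 ± 0.09). Cdk2, the kinase of cyclins E and A, read 10.83, 10.62, 11.02 and 10.77 against 11.86, 11.66, 11.88 and 11.83 (1.00 ± 0.10). Groups were separate for both. The E2F dimer partners Tfdp1 (0.86) and Tfdp2 (0.77), the cyclins Ccnd3 (0.79) and Ccne2 (0.71), the pocket protein Rbl1 (0.76) and the inhibitor Cdkn1a (0.64) were also higher. The D-type cyclins did not move together: Ccnd2 read 10.15, 9.31, 10.31 and 9.48 with IgG and 9.34, 8.75, 8.95 and 9.37 with anti-MYF5 and, at -0.71 ± 0.30 (adjusted p = 0.0496), had overlapping groups and a call lost with median scaling or without scaling. Mnat1, of the CDK-activating kinase, was the other lower member (-0.62), and its call was lost under the same scalings. Replication factors had 15 of 40 lower, led by the polymerase subunits Pole3 (-1.63) and Pold4 (-1.53), and 7 higher, led by Rfc1, with a median of -0.15 that turned positive with median scaling (0.12). Mitotic genes had 5 of 23 higher (21.7%), with Cdk1 (0.70), and 6 lower (26.1%, near the background), with Mad1l1 (-0.76) and Ndc80 (-0.65). The calls of Mad1l1 and Ndc80 were lost without scaling and, for Ndc80, with median scaling.

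Signalling lists had more genes higher than lower, as did all genes. Growth factor and Wnt receptors had 11 of 19 higher and none lower (median of the whole list 0.27). Their ligands had 8 of 24 higher and 4 lower, beside 29% higher and 24.8% lower over all genes. The division into receptors and ligands was made after the values were seen. All 3 tested TGF-beta receptors were higher, Tgfbr2 (0.98), Tgfbr1 (0.76) and Tgfbr3 (0.54), with the BMP receptor Bmpr1a (0.62), the FGF receptor Fgfr1 (0.76) and the Frizzled receptors Fzd2 (0.90), Fzd3 (0.69) and Fzd7 (0.48). Tgfbr2 read 11.21, 11.32, 11.41 and 11.63 with IgG and 12.44, 12.26, 12.13 and 12.67 with anti-MYF5, without overlap (0.98 ± 0.13). In the MAP kinase cascade 11 of 25 were higher (44.0%) and 5 lower (20.0%). Map3k8, a kinase upstream of ERK, was the most positive at 1.13 (adjusted p = 5.0e-05), on a probe detected on 3 of 4 IgG arrays. Next came Map2k4 (0.99), Mapk9 (0.92), Mapkapk2 (0.86) and Map2k3 (0.60), of the p38 and JNK pathways, and the lowest were Map2k2 (-0.70), Map4k4 (-0.65) and Araf (-0.63), which lost their calls without scaling. Dual-specificity phosphatases, which switch MAP kinases off, had 8 of 18 higher (44.4%) and 1 lower. Dusp7 read 8.89, 9.22, 8.98 and 9.30 with IgG and 10.48, 10.23, 10.53 and 10.46 with anti-MYF5 (1.33 ± 0.14), and Dusp28 (1.28), Dusp1 (0.71) and Dusp10 (0.69) followed.

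Immediate early genes, which growth signals induce quickly, had 11 of 22 higher (50.0%) and 2 lower (median 0.44, 0.40 to 0.40 relative to all genes). Gadd45a, a growth arrest gene, read 8.37, 8.60, 8.70 and 9.93 with IgG and 9.84, 9.99, 9.94 and 10.75 with anti-MYF5. Its groups overlapped, and IgG array 4 lay far above the other IgG arrays (1.23 ± 0.24, adjusted p = 1.5e-04). The AP-1 genes Junb (0.82), Fos (0.58) and Jun (0.47) were higher and Fosl1 (-0.54) lower, although the Fosl1 call was lost with median scaling. Egr2 (0.99), Srf (0.83) and Myc (0.63) were higher as well.

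Lists of membrane traffic and membrane proteins were set beside the 29% higher and 24.8% lower of all genes. Of 53 small GTPases of the Rab and Arf families 27 were higher (50.9%) and 9 lower (17%, median 0.28). Rab31, a GTPase of trans-Golgi and endosome traffic, read 12.67, 12.85, 12.72 and 13.10 with IgG and 14.32, 14.16, 14.09 and 14.30 with anti-MYF5 (1.38 ± 0.11, adjusted p = 3.5e-09). Rab12 (1.36), Rab28 (1.27) and Rab33b (1.23) were next, and Rab13 (-1.48), Arl3 (-1.40) and Arl2 (-1.15) were lowest. SNARE proteins had 14 of 36 higher (38.9%) and 8 lower (22.2%, near the background) and held extremes of both kinds, with Stx2 (1.81), Ykt6 (1.81) and Sec22c (1.33) against Vamp8 (-2.05), Use1 (-1.69) and Vamp5 (-1.42). Vamp8, an endosomal SNARE, read 9.36, 9.48, 9.25 and 9.45 with IgG and 7.21, 7.38, 7.40 and 7.37 with anti-MYF5, with each group within a narrow band. Palmitoyltransferases, which attach lipid to proteins, had 7 of 14 higher (50.0%) and none lower, led by Zdhhc17 (1.35) and Zdhhc13 (1.13). The Zdhhc17 probe was detected on 2 of 4 IgG arrays. Solute carriers had 46 of 124 higher (37.1%) and 8 lower (6.45%), with Slc48a1 (1.46) and Slc35e1 (1.45) and Slc50a1 (-1.15). The Tmem series had 51 of 113 higher (45.1%) and 17 lower (15%), down to Tmem205 (-2.04).

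Other membrane lists had medians below 0 or were split. Coat and tether genes of the COPI, COPII, TMED and TRAPP groups had 10 of 31 lower, with Trappc2l (-1.42) and Trappc1 (-1.19), and 6 higher, with Sec24b (1.02), and their median of -0.16 turned positive with median scaling (0.04). Subunits of the V-type ATPase, the proton pump of lysosomes, had 7 of 18 lower (Atp6v0e (-0.99) and Atp6v1h (-0.97) led) and 2 higher, and a median of -0.10 that turned likewise (0.10). The cholesterol pathway was split under quantile normalization, with 5 of 17 higher and 5 lower (29.4% each, beside 29% and 24.8% of all genes). The counts were 7 higher and 4 lower with median scaling, and 8 higher and 2 lower without scaling. Insig1, the sterol-sensing brake on SREBP, was at 1.66 ± 0.26 (adjusted p = 1.8e-05), and the synthesis enzymes Ebp (-1.16) and Fdps (-0.90) were lower while Hsd17b7 (0.89) and Dhcr7 (0.74) were higher.

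Contractile and structural genes were lower or divided. Of 20 sarcomere and excitation-contraction genes detected in these dividing cells 12 were lower and 1 higher (median -0.65, -0.73 to -0.69 relative to all genes). Arrays numbered 4 stood apart in both groups: the class level, as the median over members of log2 signal minus the IgG mean, was 0.58 on IgG array 4 and -0.21 to -0.09 on the other IgG arrays, and -0.11 on anti-MYF5 array 4 and -0.98 to -0.91 on the other anti-MYF5 arrays. Class levels of the antibodies thus overlapped when array numbers were set aside. Set side by side by number, they were -0.12, -0.09, -0.21 and 0.58 on IgG arrays 1 to 4. On anti-MYF5 arrays 1 to 4 they were -0.91, -0.93, -0.98 and -0.11, each below the IgG array of its number. Whether arrays of 1 number share a source was not tested. Without both arrays numbered 4 the counts were 14 lower and 1 higher (median -0.68). Mylpf, a fast muscle myosin light chain, read 6.15, 6.25, 6.13 and 8.05 with IgG and 4.57, 4.75, 4.65 and 5.53 with anti-MYF5, and IgG array 4 was far above the other IgG arrays (-1.77 ± 0.29). Its probe was detected on 1 of 4 anti-MYF5 arrays and that of Tnnt1 (-1.84 ± 0.47, groups overlapping) on 2. Myl1 (-1.63), Tpm2 (-1.59), Myl4 (-1.42), Acta1 (-1.11) and Des (-0.68) were lower, with the Des call lost without scaling, and the acetylcholine receptor gene Chrnb1 (0.44) was higher, a call lost without IgG array 4. Of the myotube markers with a probe, Ckm and Tnnt3 were detected on no GM array, and the summed raw signal of the 4 was 372 to 441 with IgG and 287 to 397 with anti-MYF5; the part of a few differentiated cells in this result was not tested. Genes of intraflagellar transport, which builds cilia, had 9 of 12 lower (median -0.54), led by the small GTPases Ift27 (-1.80) and Ift22 (-1.31), but 2 with median scaling. Tubulin, dynein and kinesin genes had 15 of 43 lower and 6 higher, with a median of -0.14 that was 0.06 with median scaling. Actin cytoskeleton genes had 10 of 25 higher, with Actn4 (0.80) and Arpc5l (0.74), and 8 lower, with Myl6 (-1.39). The counts were 9 higher and 5 lower with median scaling, and 11 higher and 2 lower without scaling. Among 41 matrix genes 7 were lower and 5 higher, fewer than the background in both directions. Timp1, an inhibitor of metalloproteases, was the lowest of them and read 13.15, 12.94, 12.97 and 12.72 with IgG and 11.50, 11.27, 11.39 and 11.04 with anti-MYF5 (-1.65 ± 0.13).

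Class levels were also taken on each array, as the median over members of the log2 signal minus the IgG mean of that gene. For ATP synthase the IgG arrays lay at -0.06 to 0.05 and the anti-MYF5 arrays at -1.61 to -1.24. For histones the ranges were -0.26 to 0.37 and -0.97 to -0.39, and neither histone range was narrow. For the G1 regulators they were -0.00044 to 0.04 and 0.28 to 0.45, and for the immediate early genes -0.04 to 0.0019 and 0.32 to 0.38. The IgG and anti-MYF5 arrays did not overlap in these classes. Without both GM arrays numbered 4, a setting chosen after the data were seen, the median was -1.46 for ATP synthase, -1.17 for complex I, -0.66 for histones, 0.37 for G1 regulators and 0.44 for immediate early genes.

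**Figure D4:**
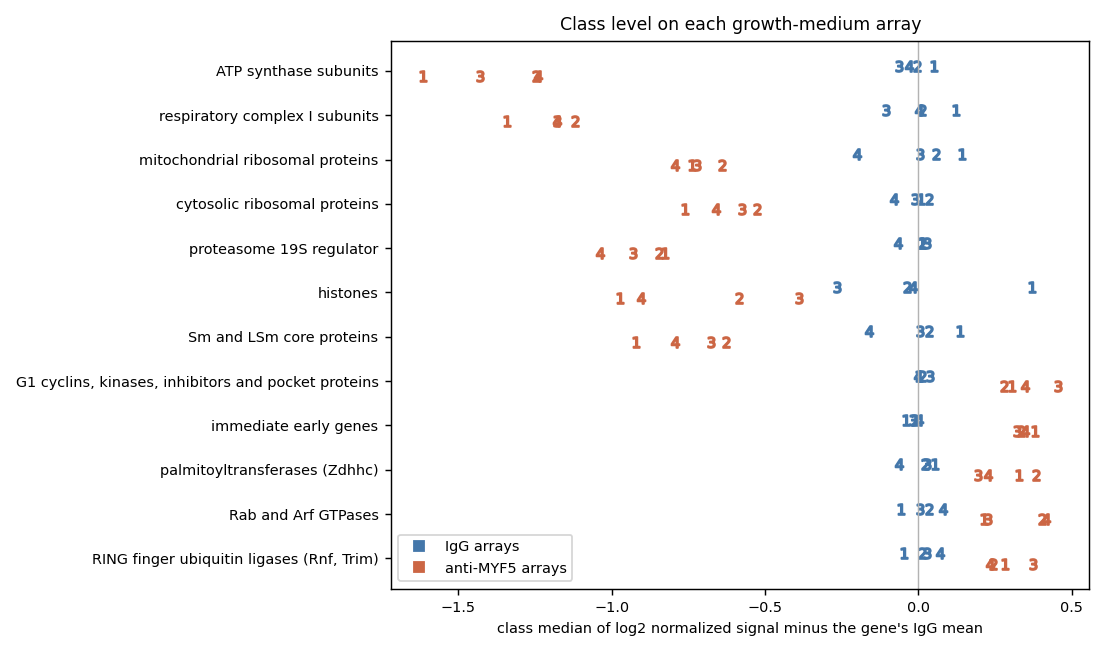
Median over class members of the log2 normalized signal minus the IgG mean of each gene (horizontal axis), for 12 classes. Digits are array numbers, with IgG arrays in the upper and anti-MYF5 arrays in the lower line of each class. The anti-MYF5 arrays lie left of the IgG arrays for ATP synthase down to the Sm and LSm proteins and right of them for the other classes shown.

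Some transcripts were detected with only 1 of the antibodies. In all, 55 probes were detected on every anti-MYF5 array and no IgG array, and 40 on every IgG array and no anti-MYF5 array. For these the fold is a lower bound, the mean of the bright group over the dimmest detectable signal of each array in the other group, or over the probe's own signal where that was higher. Of the first kind, Sfxn3, a mitochondrial serine transporter, was at least 2.06-fold higher, Akap1, an anchor of protein kinase A on mitochondria, at least 1.89-fold, Chfr, a mitotic checkpoint ligase, at least 1.81-fold, Meis3 at least 1.61-fold, Zdhhc18 at least 1.59-fold and Azin2 at least 1.55-fold. Of the second kind, Gm1673 was at least 2.76-fold lower, the cytokine Tslp at least 2.72-fold, a probe of the tropomyosin Tpm2 at least 2.55-fold, the muscle protease Capn3 at least 2.36-fold, 1700071K01Rik at least 1.97-fold and a probe of Akap9 at least 1.96-fold. Adjusted p-values for the 12 lay between 7.9e-10 and 3.9e-05. These genes were chosen by detection with 1 antibody and passed the detection filter only through its arrays. Their direction and separation are therefore not a result, and the p-values are no separate support. All were dim where detected, with means of 5.54 to 6.35 on the log2 scale.

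Probes of the same gene mostly had calls of the same sign. Of 2305 genes with several tested probes, 1092 had at least 2 called probes, of which 1043 had calls of 1 sign only and 49 had calls of both signs. The median gap between probes of a gene was 0.26. The widest opposite pairs belonged to Actb, Jam2, Dph3 and Gch1. For Actb, the cytoplasmic beta-actin gene, the brightest probe read 13.61, 13.78, 13.75 and 13.75 with IgG and 13.54, 13.33, 13.54 and 13.52 with anti-MYF5 (-0.24 ± 0.10, adjusted p = 0.047), a call lost under several settings. A dim probe of Actb read 5.99, 7.23, 6.48 and 9.55 against 9.40, 8.80, 10.20 and 9.83 (2.24 ± 0.53), with overlapping groups and IgG array 4 well above the other IgG arrays. For Jam2, a junctional adhesion protein, 3 probes were higher by 0.82 to 1.15 and 1 lower at -1.09. For Dph3, of diphthamide synthesis, the probes were at 1.02, 1.26 and -0.95, and for Gch1, the first enzyme of tetrahydrobiopterin synthesis, at -1.42 and 0.61. What these probes read was not tested.

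Transcripts outside protein-coding genes were few. By RefSeq type, 8455 of the tested genes were protein-coding, 18 were transcribed pseudogenes and 7 were long noncoding RNAs. Among the pseudogenes 2 were higher and 8 lower (median -0.30), and among the long noncoding RNAs none was higher and Xist was lower (-0.62; class median -0.09). Tug1 was at -0.15, a small nuclear RNA listed as Rnu6 at 0.18 and Snora65 at -0.29, none of them called.

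The same contrast in differentiation medium was used to show where growth medium differed. The difference between media was called for 476 of 12430 probes (3.83%), of which 261 had a smaller and 215 a larger value of anti-MYF5 minus IgG in DM. This count was the least stable of those reported, at 211 without IgG array 1, 201 without IgG array 2, 1021 without IgG array 4, 215 without anti-MYF5 array 1 and 281 without anti-MYF5 array 3. Rfc1 differed by 2.15 in GM and 0.54 in DM (difference -1.61 ± 0.18, adjusted p = 2.3e-05). Smarcal1 went from -2.85 to -1.12 (1.73 ± 0.21) and Atrip from -2.28 to -0.51 (1.77 ± 0.23). All were nearer to 0 in DM, but these genes were chosen by the size of their difference in GM. Smaller values in DM are therefore no independent sign of a weaker difference there. Actn4, an actin crosslinker, changed sign, from 0.80 in GM to -0.94 in DM. The brightest Ccnd1 probe stood at 0.55 in GM and 0.50 in DM, and the difference of -0.05 was not called (adjusted p = 0.92).

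Class medians in DM stood beside those in GM as follows. Complex I was at -1.15 in GM and -1.03 in DM, ATP synthase at -1.41 and -1.18, mitochondrial ribosomal proteins at -0.79 and -0.69, and the 19S proteasome at -0.89 and -1.08. Histones were at -0.75 and -0.32, the Sm and LSm list at -0.74 and -0.29, glycolytic enzymes at -0.29 and -0.90, and growth factors and receptors at 0.27 and 0.57. A gap between class medians was not the median of the gene by gene difference, DM minus GM, which was 0.26 for complex I, 0.26 for ATP synthase, 0.22 for histones, 0.21 for the Sm and LSm list, 0.23 for growth factors and receptors and 0.01 for glycolytic enzymes. Genes with a called difference between media numbered 8 of 47 histones, 8 of 58 cytosolic ribosomal proteins, 4 of 16 ATP synthase subunits, 5 of 20 sarcomere genes and 5 of 25 actin cytoskeleton genes. In the immediate early list the number was 1 of 22, in the Sm and LSm list 2 of 27, and none of the 19 genes of the 19S proteasome had one. These class counts are of genes by their brightest probe, and no share over all genes on that basis is given here. Over all tested probes, which include dimmer ones of the same genes, the share was 3.83%. That total ran from 201 to 1021 probes with an array left out, and the class counts were not repeated with arrays left out.

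**Figure D5:**
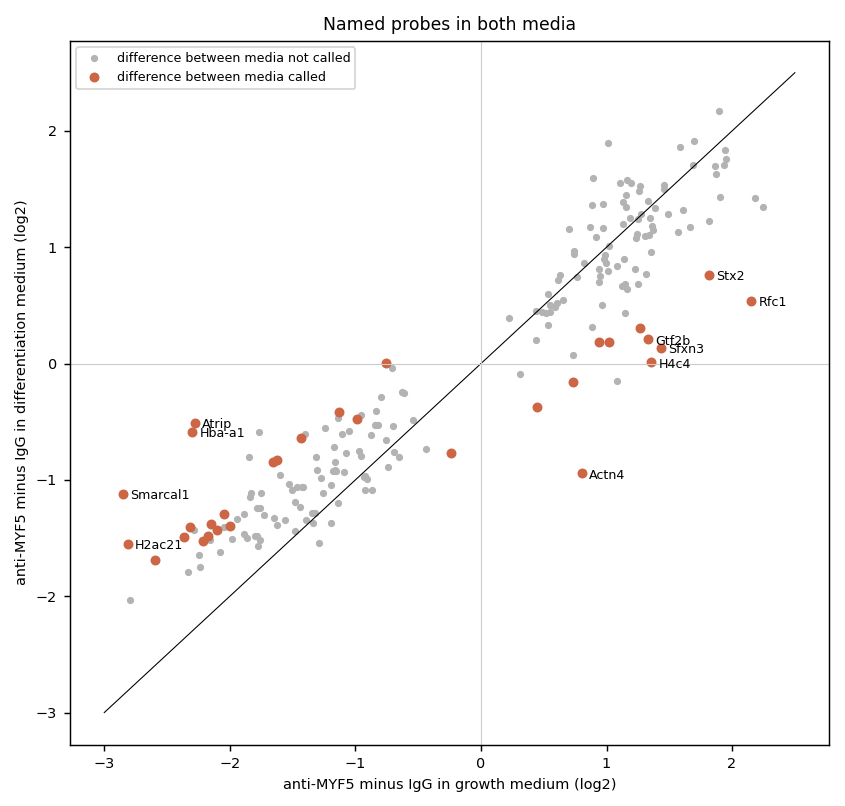
Difference between anti-MYF5 and IgG (log2) in differentiation medium against that in growth medium for the named probes, with the line of equality. Probes with a called difference between media are coloured, and those that differ by more than 1 are named. Rfc1 and Smarcal1, chosen by the size of their difference in growth medium, lie nearer to 0 in differentiation medium. Actn4 lies on opposite sides of 0.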

How the data were processed

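The authors deposited non-normalized bead-array intensity values with a detection p-value per probe for 16 arrays, per the file headers and the submitters' processing notes, which name GenomeStudio 2011.1. The authors' deposited series values were found to be a score, the z-score of log10 intensity within each array, and served as an alternative. Scanner settings are not given in the sources used here. Intensities of all 16 arrays were corrected with normexp (offset 16, control distribution inferred from detection p-values), quantile-normalized and taken as log2; a fold change is therefore on the scale of signal plus an offset and understates changes of dim probes. limma 3.58.1 in R 4.3.3 fitted the 4 groups with an intensity trend (12 residual degrees of freedom), and p-values were adjusted by Benjamini-Hochberg over 12430 probes, with calls at 0.05. The fit was tested on simulated data. Probes were named through the platform annotation and RefSeq gene identifiers (GRCm38.p6 names only): 23978 of 25697 had 1 symbol, none had several, and 1719 had none.

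Genes named are Ccnd1 and Myf5, the 12 largest differences in each direction whose groups do not overlap, up to 2 members of each class in its main direction and 1 in the other, 6 genes per direction detected with 1 antibody only, and 4 genes with opposite probes. Other class members are given to show a family in full or were chosen after their values were seen. Counts within a part of a class are for divisions made after the values were seen. Members and lists were chosen with earlier results of these data known, and 1 gene class is not reported here. Labelling from oligo-dT favours polyadenylated transcripts and their 3′ ends. The number of arrays limits the precision. Alternatives were other background corrections, scalings, filters, designs and left-out arrays.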

Additional observations from a re-analysis of the deposited data

Results flagged for a closer look

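In 17 of the 410 groups of 4 values behind the named probes, 1 array lay farther from the rest than Dixon's 95% limit for 4 values allows. Chance gives about 1 in 20 such groups. The values past the limit, in log2 normalized signal, were on IgG array 3 Eif3k (10.65, lowest) and Trim54 (6.62, lowest); on IgG array 4 Hba-a1 (10.06, highest), Zfp825 (5.91, lowest), Aldoa (11.72, highest), Eno3 (11.85, highest), Usp21 (7.71, highest) and Mylpf (8.05, highest); on anti-MYF5 array 1 Rab13 (6.10, lowest). They were also on anti-MYF5 array 2 Actb (13.33, lowest); on anti-MYF5 array 3 Ybx3 (8.14, lowest) and Pole3 (8.67, highest); on anti-MYF5 array 4 Rpl22 (11.94, highest), Eif4e3 (10.68, lowest), Etf1 (12.57, lowest), Slc25a30 (10.24, highest) and Gadd45a (10.75, highest). IgG array 4 held 6 of them and anti-MYF5 array 4 held 5. Array 4 of the IgG group was also the dimmest array of the comparison, and the part of its depth in these values was not tested.

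For 31 of 205 named probes, the value of anti-MYF5 minus IgG differed between the media by the test of the difference itself (limma, adjusted p under 0.05 over all 12430 probes). DM minus GM was negative, on the log2 scale, for Actb (-0.53), Actn4 (-1.75), Akap1 (-0.96), Cnot6 (-0.75), Gtf2b (-1.12), H4c4 (-1.34), Iars2 (-0.82), Nupl1 (-0.89), Rfc1 (-1.61), Sec24b (-0.84), Sfxn3 (-1.29) and Stx2 (-1.05). It was positive for Atp6v0e (0.52), Atrip (1.77), Cox6b1 (0.68), Cox7a2 (0.69), Ddt (0.88), Fbxl13 (0.72), Gm1673 (0.81), H2ac11 (0.91), H2ac21 (1.26), Hba-a1 (1.71), Hnrnpdl (0.76), Mrpl52 (0.67), Ndufa3 (0.77), Pole3 (0.79), Polr2i (0.79), Rpl28 (0.60), S100a13 (0.91), Smarcal1 (1.73) and Vamp8 (0.75). Named probes were mostly chosen by the size of their difference in GM, so smaller values in DM are no independent sign of a weaker difference there.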

How the results depend on the processing

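Probe counts were 3634 higher and 3052 lower under quantile normalization. Leaving out each GM array in turn gave 3372 to 3680 higher and 2865 to 3128 lower, and without both arrays numbered 4, a setting chosen after seeing the data, they were 3707 and 3087. Scaling mattered more: 1615 probes were lower with median scaling, and without scaling 5454 were higher and 1131 lower. Changes of background correction, offset, filter, variance trend and cyclic loess stayed within 1.5 times of both counts. Ccnd1 was at 0.55 on its brightest probe, 0.49 to 0.68 with an array left out, 0.43 with median scaling, 0.19 with cyclic loess and -0.0354 in the deposited z-scores. Its next probe was at -0.0224 there and Sod2 at -0.0182. The cause of these changes was not tested. The 476 probes with a difference between media became 201 to 1021 with an array left out and 820 with the replicate number as a block. The block over 16 arrays gave 3844 higher and 3202 lower probes, and over the 8 GM arrays 4000 and 3319. Arrays with the same number deviated from their group means with correlations of 0.34, 0.31, 0.02 and 0.62. The value of 0.62, for the arrays numbered 4, was the highest of all pairs, but IgG array 3 correlated best with anti-MYF5 array 1 (0.38). As 1 pair was under 0.1 and the labels name no shared source, the arrays were not treated as paired; whether some share a source was not tested. Of 77 further class members named with a call, 16 lost it under another scaling, 15 of them without scaling. The planned comparison by protein length was not run. The dimmest genes had the fewest calls, and probes below the detection limit give only a bound. With 4 against 4 arrays an exact permutation test cannot go below 0.0286.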
